A study of Caenorhabditis elegans with 12 samples.

Results

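Whole-worm RNA of a Caenorhabditis elegans double strain, rde-1(ne219); cpl-1*, was sequenced and set against that of wild type. The members described are the genes whose comparison between these strains was completed in the authors' table (status OK), which were 17161 of the 46217 gene identifiers listed. Of the 17161 genes, 15906 were protein coding. The study asked how misfolding of an ER protein, and loss of an Argonaute, change mRNA levels. It sequenced 12 samples, 3 for each of 4 strains, all day 1 adults grown at 20 °C. Values of worms carrying cpl-1WT, the unaltered transgene, were not used here.

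Wild type was strain PP1, an N2 line with no transgene. Strain PP2246 (rde-1(ne219); cpl-1*), called the double strain, carried the integrated transgene hhIs113 on chromosome I and the allele rde-1(ne219) on chromosome V. The transgene expressed CPL-1*, a mutated cathepsin L, from the promoter of nhx-2, which is active in the intestine, together with a red marker from the pharyngeal promoter of myo-2. Strain PP1386, called cpl-1*, carried hhIs113 without the rde-1 allele. Its genotype label names the substitutions W32A and W35A and a gfp tag and no red marker, whereas that of the double strain names W32A and Y35A and YFP, and the source labels of both name yfp. The double strain thus differed from wild type by the transgene and by rde-1(ne219) together, and these effects cannot be told apart in this comparison. The values of cpl-1* stand beside those of the double strain for this reason.

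Proteins that enter the secretory pathway fold in the endoplasmic reticulum (ER), where chaperones and disulfide isomerases act on them. Misfolded ER proteins are exported and degraded by ER-associated degradation (ERAD), and an overloaded ER induces chaperone genes through the unfolded protein response (UPR), with IRE-1 and XBP-1 as its most conserved branch. RDE-1 is the Argonaute that binds the small interfering RNAs of the exogenous RNA interference (exo-RNAi) pathway, and ne219 is a loss-of-function point mutation in its PAZ domain. In adult hermaphrodites, the germ line that makes oocytes provides much of the RNA, the intestine makes yolk, and the epidermis makes the collagens of the cuticle, most of which are transcribed in pulses at each larval molt.

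Levels are FPKM, fragments per kilobase of transcript scaled to the mapped fragments, with 1 value per gene and strain that the authors pooled over the samples of the strain. The spread between samples is therefore not shown, and no test was run on 1 value per strain, and the sequencing depth behind the values is not known. Log2 ratios compare FPKM values after adding 1 to each, and a gene was called higher or lower past a log2 ratio of 1. They describe these pooled libraries and understate the change of genes at low levels. Where 3 values follow a gene without strain names, they stand in the order wild type, cpl-1* and double strain. Ratios of both strains to wild type share the same wild-type values. In whole-worm RNA, fewer cells of a type and less RNA per cell cannot be told apart.

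The altered genes came first. The rde-1 gene was listed at 28.3 FPKM in wild-type worms, 27.97 in cpl-1* and 19.3 in the double strain, a log2 ratio of -0.53 to wild type. A point mutation need not change the level of its mRNA, and the label cannot be checked by this value. The cpl-1 gene (WBGene00000776), on chromosome V (16592572 to 16595346, minus strand) of WBcel235, was at 1377 FPKM in wild-type worms, 2920 in cpl-1* and 9749 in the double strain. Its log2 ratio to wild type was 2.82 in the double strain and 1.08 in cpl-1*. The transgene carries cpl-1 sequence, so these values hold transgenic and endogenous mRNA together, and in the double strain cpl-1 was among the 3 genes of highest FPKM. The nhx-2 gene, whose promoter drives the transgene, was at 24.8 FPKM in wild-type worms, 33.2 in cpl-1* and 43.0 in the double strain.

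The transcriptome of the double strain lay far from that of wild type. Of the 17161 genes, 4155 (24.2%) were higher and 2485 (14.5%) were lower past a log2 ratio of 1. Cuticle, molting, sperm and ER chaperone genes were among the higher genes, and yolk, oocyte and DNA replication genes were among the lower. By the same rule, 1435 of 16395 genes (8.75%) were higher and 185 (1.13%) were lower in cpl-1* against wild type. The 25th and 75th percentiles of the log2 ratio were -0.65 and 0.96 in the double strain, an interquartile range of 1.62, against 0.49 in cpl-1*. Only 31.6% of genes stayed within a log2 ratio of 0.5 of wild type in the double strain, against 76.0% in cpl-1*.

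Higher genes outnumbered lower ones increasingly at large ratios. Past a log2 ratio of 2, 1810 genes were higher and 489 lower. Past 4, these counts were 284 and 21, and past 6 they were 72 and 1. As a description of their weight, genes called higher took 3.64% of the FPKM sum in wild type, 6.51% in cpl-1* and 19.1% in the double strain, and genes called lower took 21.7%, 19.9% and 7.64%. The direction of both series between wild type and the double strain is set by the calls themselves.

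The balance of directions depended on the scale. The median log2 ratio of all genes was 0.15, and 62.6% of called genes were higher. Relative to that median, 3645 genes were higher and 3260 lower, so that 52.8% of called genes were higher. With FPKM rescaled to a common 75th percentile, 5329 were higher and 1434 lower, or 78.8%.

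**Figure D1:**
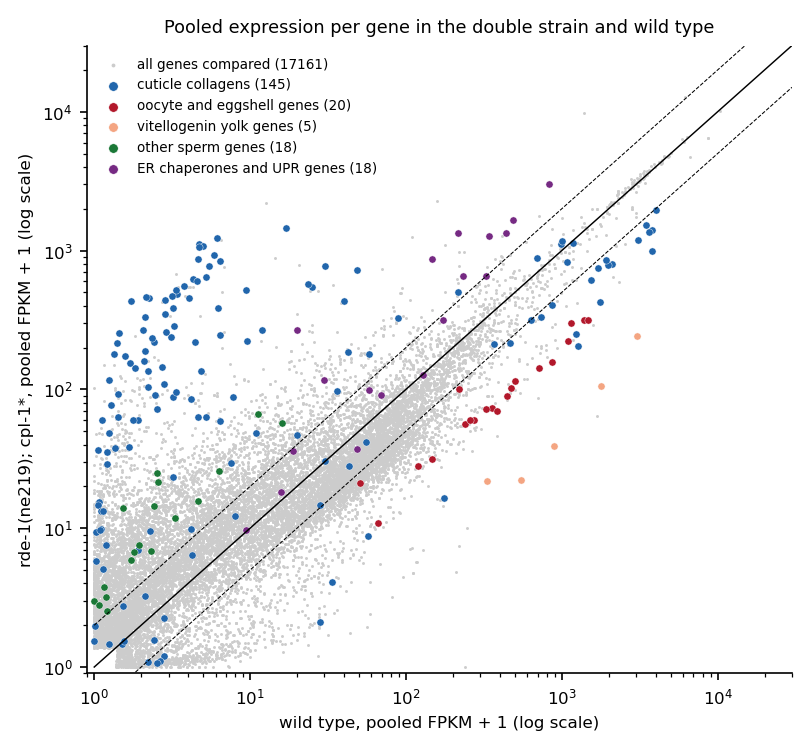
Pooled FPKM plus 1 of each of 17161 genes in wild type (x axis, log scale) and in rde-1(ne219); cpl-1* (y axis, log scale), with 5 gene lists coloured. The solid line marks equal values and the dashed lines a log2 ratio of 1 either way; 98 of 145 cuticle collagens lie above the upper dashed line, and all 20 oocyte and eggshell genes lie below the lower one.

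Calls were unevenly spread over levels and chromosomes. Among genes with a mean of 1 to 10 FPKM over both strains, 39.4% were higher and 10.3% lower. Between 10 and 100 FPKM these shares were 17.6% and 20.7%, and from 100 FPKM on they were 12.6% and 17.1%. Chromosomes IV and V held the largest shares of higher genes, 27.9% and 27%, and chromosome III the smallest of the nuclear chromosomes, 19.5%. The median log2 ratio ran from -0.18 on chromosome I to 0.40 on the X chromosome.

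Yolk protein genes had the lowest median of any list. Vitellogenins are lipid-carrying yolk precursors made in the adult intestine and taken up by oocytes. All 5 members with a completed comparison were lower, with a median log2 ratio of -4.08 in the double strain and 0.05 in cpl-1*. The vit-6 gene, for example, was at 3017 FPKM in wild-type worms, 3026 in cpl-1* and 240.0 in the double strain. For vit-3 the values were 545 FPKM, 564 FPKM and 21.1 FPKM. The comparison of vit-2 failed in the authors' table, and its FPKM was 3035 in wild type, 2837 in cpl-1* and 142 in the double strain. Summed over the 6 vitellogenins, FPKM was 9594 in wild type, 9580 in cpl-1* and 567 in the double strain. These genes are similar in sequence, and reads can be split between them.

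Oocyte and eggshell genes were lower without exception. All 20 members were called lower, with a median log2 ratio of -2.201 in the double strain and -0.12 in cpl-1*. The yolk receptor gene rme-2 was at 326 FPKM in wild-type worms, 307 in cpl-1* and 70.7 in the double strain. The translational regulator gene oma-2, needed for oocyte maturation, had 381 FPKM, 360 FPKM and 68.5 FPKM. Ratios ran from -2.61 for egg-5, which acts in the oocyte-to-embryo transition, to -1.12 for the chitin synthase gene chs-1. The maternal mRNA of pos-1, a regulator of early embryonic fates, was at 869 FPKM in wild-type worms and 155 in the double strain.

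Genes of dividing cells were lower to a similar degree. All 15 DNA replication and mitotic cyclin genes were called lower, with a median of -1.73 against -0.17 in cpl-1*. The mcm genes of the list encode the replicative helicase, and the values of mcm-2 and mcm-7 were 144 FPKM and 213 FPKM in wild-type worms and 44.4 FPKM and 52.2 FPKM in the double strain. Cyclin B3 (cyb-3) was at 794 FPKM in wild-type worms, 672 in cpl-1* and 190.0 in the double strain. The double strain thus stood apart from both other strains in this gene.

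Genes of the mitotic germ line and of meiosis were lower in part. Of the 11 germ line stem cell and P granule genes, 6 (54.5%) were called lower and 0 higher, with a median of -1.03. Of all genes, 14.5% were lower and 24.2% higher. The Notch receptor gene glp-1, which keeps germ cells mitotic, was at 48.9 FPKM in wild-type worms, 43.8 in cpl-1* and 17.6 in the double strain. The values of fbf-1 and fbf-2, which encode RNA-binding proteins of germ line stem cells, were closer, at 14.9 FPKM and 13.8 FPKM in wild-type worms and 12.99 FPKM and 14.2 FPKM in the double strain. Of the 15 meiotic chromosome axis and synapsis genes, 6 (40%) were lower and 0 higher, with a median of -0.85. The lowest ratio among them was -1.36, for him-8, which acts in pairing of the X chromosomes.

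Sperm genes went the other way. Of 33 major sperm protein (msp) genes, which encode the cytoskeletal protein of nematode sperm, 31 were higher and 0 lower, with a median log2 ratio of 1.90 in the double strain and 1.13 in cpl-1*. Their summed FPKM was 1392 in wild type, 3208 in cpl-1* and 5421 in the double strain. All 18 other sperm genes were higher, with a median of 1.83 against 0.81. The Argonaute genes alg-3 and alg-4 of this list, which act in spermatogenesis, had 1.57 FPKM and 1.53 FPKM in wild-type worms and 20.7 FPKM and 24.0 FPKM in the double strain. Of 45 nematode-specific peptide genes, which were listed apart from the sperm genes, 28 were higher and 0 lower, with a median of 1.58. Their largest ratios, 5.09 for nspb-12 and 4.74 for nspb-11, lay above the maximum of the msp list, 4.40. Members of the msp family are near-identical, so the value of any single one is uncertain.

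Cuticle collagens held most of the largest ratios, and they were found on both sides. Of 145 cuticle collagen genes, 98 (67.6%) were higher, 26 (17.9%) were lower and 21 were not called, against 24.2% higher and 14.5% lower of all genes. The median log2 ratio of the collagens was 3.78 in the double strain and 1.42 in cpl-1*. The highest ratio in the whole comparison was that of sqt-2 (WBGene00005017), on chromosome II (23325 to 24458, plus strand), with 0.719 FPKM in wild-type worms, 47.1 in cpl-1* and 434 in the double strain, a log2 ratio of 7.98. It was followed by dpy-13 (WBGene00001074), on chromosome IV (4235614 to 4236710, plus strand), with 3.68 FPKM, 172 FPKM and 1110 FPKM. Mutations in either gene alter body shape, as do those in dpy-5, dpy-4, sqt-1 and rol-6, whose ratios were 7.82, 7.75, 7.75 and 7.46. In each of these genes the value of cpl-1* lay between those of wild type and the double strain.

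The collagens that were lower in the double strain had high levels in wild type as a group. The 26 lower collagens had a median of 1252 FPKM in wild-type worms, 1555 in cpl-1* and 368 in the double strain. They included col-119, with 3781 FPKM in wild-type worms, 4138 in cpl-1* and 993 in the double strain, and col-124, with 4004 FPKM, 4347 FPKM and 1951 FPKM. The 98 higher collagens had medians of 1.99 FPKM in wild-type worms, 29.4 in cpl-1* and 175 in the double strain. The former held 85.9% of collagen FPKM in wild-type worms and 30.1% in the double strain, and the latter 1.86% and 58.5%, shares whose direction the split by call sets. Summed over all collagens listed, FPKM was 44571 in wild type, 54726 in cpl-1* and 47888 in the double strain. Collagen genes share sequence, and reads can be split between members.

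**Figure D2:**
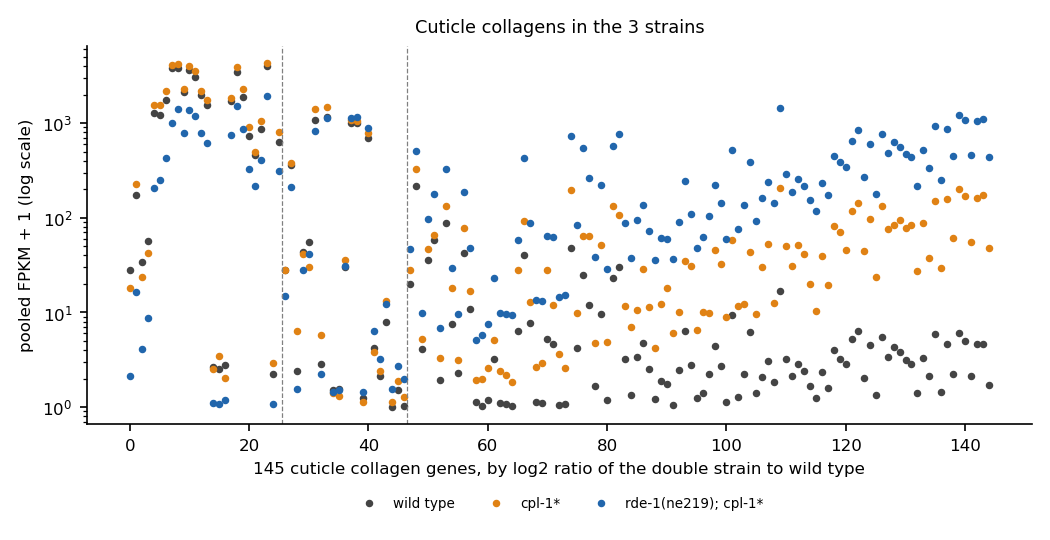
Pooled FPKM plus 1 (y axis, log scale) of 145 cuticle collagen genes in wild type, in cpl-1* and in the double strain, ordered along the x axis by the log2 ratio of the double strain to wild type. Dashed lines separate the 26 lower, 21 uncalled and 98 higher genes; among the higher genes, cpl-1* generally sits between the other strains.

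Stage-specific collagens fell on both sides. The adult-specific collagen gene col-19 was at 1714 FPKM in wild-type worms, 1837 in cpl-1* and 745 in the double strain, a log2 ratio of -1.20. The other 4 members of the adult collagen list were higher. Among them, bli-1 and bli-2, which build the struts between the layers of the adult cuticle, had 0.288 FPKM and 0.398 FPKM in wild-type worms, 10.8 FPKM and 26.8 FPKM in cpl-1*, and 75.8 FPKM and 217 FPKM in the double strain. All 6 furrow collagens, which pattern the circumferential furrows of the cuticle, were higher, with ratios between 3.52 for dpy-10 and 6.02 for dpy-8. Their summed FPKM was 16.12 in wild type, 58.4 in cpl-1* and 547 in the double strain.

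Molting genes were higher as well. Of 17 members, 14 were higher and 0 lower, with a median of 3.02 in the double strain and 0.55 in cpl-1*. The mlt-10 gene, needed to shed the old cuticle, was at 4.85 FPKM in wild-type worms, 15.3 in cpl-1* and 89.9 in the double strain. The nuclear receptor genes nhr-23 and nhr-25, which drive molting, were not called, with 33.8 FPKM and 3.45 FPKM in wild-type worms and 28.4 FPKM and 4.18 FPKM in the double strain. Neither was nas-37, a protease of molting, at 17.97 FPKM and 30.9 FPKM.

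The hedgehog-related, patched-related, astacin, cuticlin, and abu and pqn lists held larger shares of higher genes, 44.3% to 80.5%, than the 24.2% of all genes. Hedgehog-related genes were higher in 33 of 41 cases and lower in 2, with a median of 2.103, and grl-16 reached 340 FPKM from 1.89 FPKM in wild type. Of 26 patched-related genes, 16 were higher and 2 lower. The latter were ptr-2 and ptc-1, at 90.6 FPKM and 118 FPKM in wild-type worms and 29.7 FPKM and 43.7 FPKM in the double strain. Of these, ptc-1 acts in germ line cytokinesis. In contrast, ptr-4, a gene needed for molting, was at 0.637 FPKM in wild-type worms and 35.6 in the double strain. Of 30 astacin metalloproteases, 16 were higher and 0 lower, and of 31 cuticlins, 16 were higher and 1 lower. Among 61 abu and pqn genes, many of which encode pharyngeal cuticle proteins, 27 were higher and 3 lower, and abu-14 was at 1.40 FPKM in wild-type worms, 24.0 in cpl-1* and 169 in the double strain. The abu and pqn members are similar in sequence.

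The median log2 ratio of the collagen processing enzymes, 0.76, was smaller than that of the cuticle collagens, 3.78, of which 26 were lower. Of 9 enzyme genes, 4 (44.4%) were higher and 0 lower, against 24.2% and 14.5% of all genes. The prolyl 4-hydroxylase genes dpy-18 and phy-2, which modify collagen in the ER, had 20.1 FPKM and 13.2 FPKM in wild-type worms, 31.9 FPKM and 19.4 FPKM in cpl-1*, and 131 FPKM and 51.2 FPKM in the double strain. The procollagen convertase gene bli-4 was at 79.5 FPKM in wild-type worms and 78.3 in the double strain.

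Heterochronic genes, which time larval fates, differed by member. The period homolog lin-42, whose mRNA oscillates with the molts, was at 3.19 FPKM in wild-type worms, 17.3 in cpl-1* and 111 in the double strain. The zinc finger gene lin-29, which triggers the larva-to-adult switch, had 4.63 FPKM, 6.24 FPKM and 15.0 FPKM, and its cofactor gene mab-10 had 5.76 FPKM, 7.83 FPKM and 17.8 FPKM. The gene lin-41, which represses lin-29 and also acts in oocytes, was lower, with 84.8 FPKM, 71.7 FPKM and 24.2 FPKM, as was lin-28 with a log2 ratio of -1.05. The fourth higher member was lin-46, with a ratio of 1.00, at the threshold.

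ER chaperone and UPR genes were higher in part. Of 18 members, 9 (50%) were higher and 0 lower, against 24.2% and 14.5% of all genes. The median log2 ratio was 1.24 in the double strain and 0.18 in cpl-1*. Summed over the 18 members, FPKM was 3585 in wild type, 4458 in cpl-1* and 11893 in the double strain. The BiP gene hsp-4, the standard marker of this response, was at 214 FPKM in wild-type worms, 291 in cpl-1* and 1337 in the double strain, a log2 ratio of 2.64. The second BiP gene, hsp-3, had 342 FPKM, 429 FPKM and 1264 FPKM. The disulfide isomerase genes pdi-6 and pdi-3 had 146 FPKM and 489 FPKM in wild-type worms and 870.0 FPKM and 1666 FPKM in the double strain. Calreticulin (crt-1), a lectin chaperone, was at 832 FPKM in wild-type worms, 1067 in cpl-1* and 2998 in the double strain, and the choline kinase gene ckb-2, a target of the response, had 19.1 FPKM, 41.9 FPKM and 266 FPKM.

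The sensors of the response were not called. The level of ire-1 was 47.6 FPKM in wild-type worms and 36.1 FPKM in the double strain, that of pek-1 14.8 FPKM and 17.4 FPKM, and that of atf-6 8.38 FPKM and 8.68 FPKM. The transcription factor gene xbp-1 was at 171 FPKM in wild-type worms, 191 in cpl-1* and 314 in the double strain, a ratio of 0.87 that was not called. Calnexin (cnx-1), the membrane-bound relative of calreticulin, was at 129 FPKM in wild-type worms and 125 in the double strain.

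ERAD genes were mostly uncalled. Of 12 members, 0 were higher and 1 (8.33%) was lower, against 24.2% and 14.5% of all genes. The median was -0.26 and turned to 0.07 with FPKM rescaled to a common 75th percentile. The adaptor gene sel-1 was at 83.2 FPKM in wild-type worms and 84.6 in the double strain, and the ubiquitin ligase gene sel-11 had 90.6 FPKM and 74.7 FPKM. The lower member was hrdl-1, a further ligase gene, with 88.3 FPKM in wild-type worms, 74.5 in cpl-1* and 41.5 in the double strain.

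Lysosomal proteases were called both ways at shares near those of all genes. Besides cpl-1, the cathepsin genes cpr-3 and cpz-2 were higher, and cpr-1 and cpz-1 were lower, among 10 compared. With cpl-1 included, 30% were higher and 20% lower, against 24.2% and 14.5% of all genes. The cathepsin B-like gene cpr-3 (WBGene00000783), on chromosome V (15296834 to 15298700, minus strand), was at 5.42 FPKM in wild-type worms, 16.07 in cpl-1* and 238 in the double strain. For cpr-1, the order was different, with 869 FPKM in wild-type worms, 133 in cpl-1* and 282 in the double strain. Of 12 aspartyl proteases, 2 were higher and 2 lower, or 16.7% each. The higher ones were asp-12, with 10.8 FPKM, 21.5 FPKM and 222 FPKM, and asp-17, and the lower ones were asp-13 and asp-8.

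Genes of RNA interference are set beside the 24.2% higher and 14.5% lower among all genes. Of 14 exo-RNAi genes, 1 was higher (7.14%), 5 were lower (35.7%) and 8 were not called, with a median of -0.78. The higher one was sid-2, which takes up double-stranded RNA from the intestinal lumen, with 8.16 FPKM in wild-type worms, 19.2 in cpl-1* and 118 in the double strain. The dsRNA-binding partner gene of Dicer, rde-4, was lower, with 114 FPKM, 112 FPKM and 49.5 FPKM, as were rde-8, pir-1, mut-16 and rde-10. Dicer itself (dcr-1) was at 23.8 FPKM in wild-type worms and 12.99 in the double strain, and the helicase gene drh-1 had 23.4 FPKM and 17.1 FPKM, neither of which was called. The RNA-dependent RNA polymerase gene rrf-1, which makes secondary small RNAs in somatic tissue, was also not called, with 35.1 FPKM and 20.2 FPKM.

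Of 17 other Argonaute and RNA-dependent RNA polymerase genes, 2 were higher (11.8%), 6 were lower (35.3%) and 9 were not called. The higher ones were rrf-2, with 1.33 FPKM in wild-type worms, 1.52 in cpl-1* and 21.1 in the double strain, and sago-2. Among the lower ones, ergo-1, the primary Argonaute of the endogenous pathway, had 116 FPKM, 109 FPKM and 30.6 FPKM. Another transcript tied to RDE-1 by background knowledge is Y47H10A.5 (WBGene00012961), on chromosome I (12095482 to 12097987, minus strand), which is known as a target of small RNAs that arise from the binding of mir-243 by RDE-1. It was at 2.34 FPKM in wild-type worms, 4.82 in cpl-1* and 676 in the double strain. Its log2 ratio of 7.66 was the sixth highest of the comparison, and among the 12 highest it alone had a ratio under 1 in cpl-1*, at 0.80. The rrf-2 gene lies close to Y47H10A.5 on the same strand, at 12098664 to 12106112. Whether the values of these genes are separate was not tested. The mir-243 hairpin was listed at 0 in all 3 strains, and whether the libraries keep small RNAs is not given in the sources used here.

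**Figure D3:**
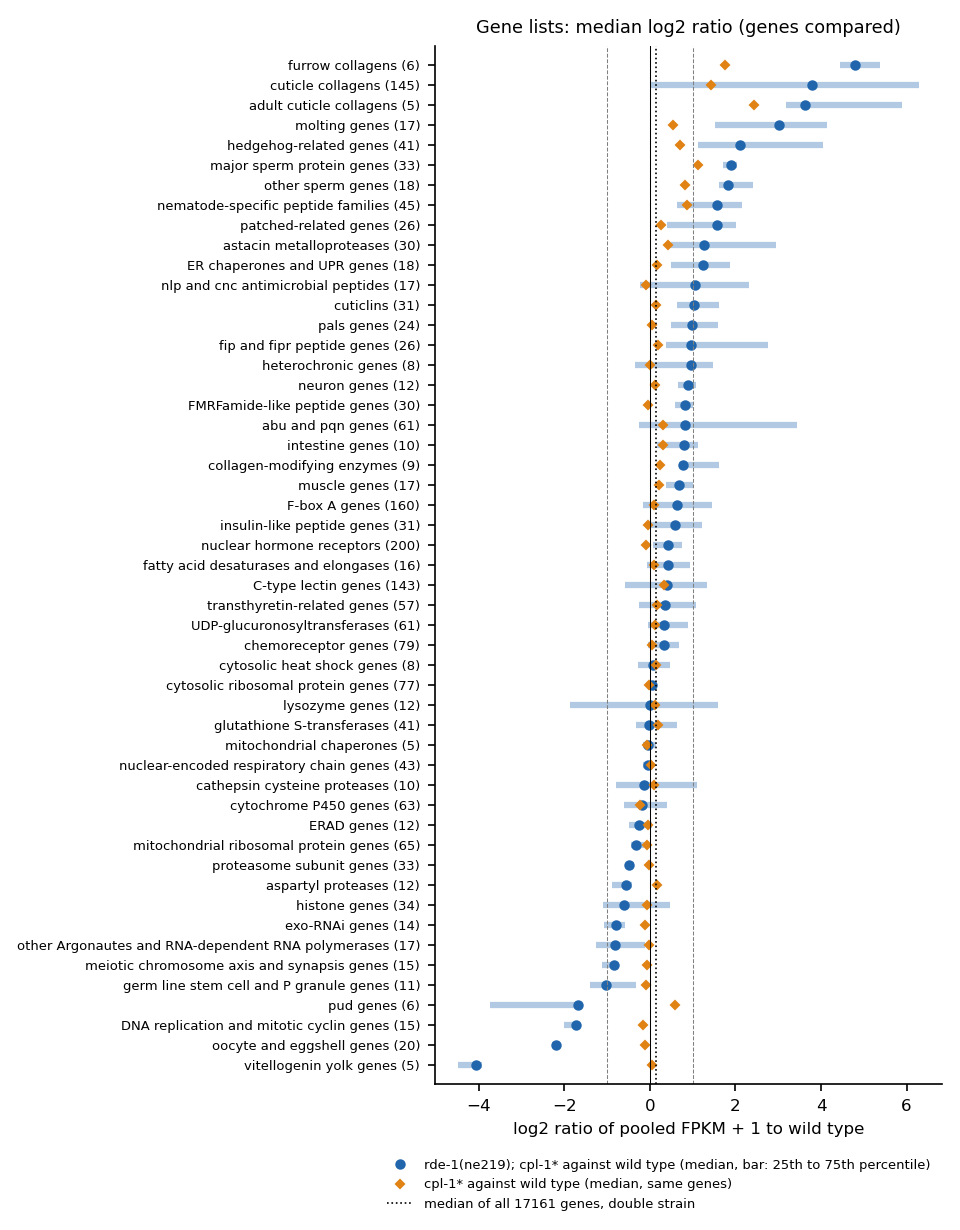
Median log2 ratio to wild type (x axis) of each gene list with at least 5 genes compared (y axis, number compared in brackets), for rde-1(ne219); cpl-1* (circles, bars from the 25th to the 75th percentile of its genes) and cpl-1* (diamonds). Dashed lines mark a log2 ratio of 1 either way and the dotted line the median of all genes, 0.15; furrow collagens lie highest at 4.80 and vitellogenins lowest at -4.08.

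Defence gene families differed in how far they stood from the background of 24.2% higher and 14.5% lower genes. C-type lectin genes lay near it, with 47 of 143 higher (32.9%) and 25 lower (17.5%), and clec-47 and clec-266 were among the 12 lowest ratios of the comparison. Lysozymes had a median of 0.00, which was negative relative to the median of all genes and positive with FPKM rescaled, and 4 of 12 were higher and 5 lower. The lys-2 gene was at 36.3 FPKM in wild-type worms, 244 in cpl-1* and 172 in the double strain. The invertebrate lysozyme gene ilys-5 (WBGene00017691), on chromosome X (6533490 to 6536840, minus strand), was at 1674 FPKM in wild-type worms, 1279 in cpl-1* and 63.7 in the double strain. Of 17 antimicrobial nlp and cnc peptide genes, many of them made by the epidermis, 9 were higher and 1 lower, and nlp-33 had 91.1 FPKM, 137 FPKM and 493 FPKM.

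Of 24 pals genes, several of which respond to intracellular pathogens, 12 (50%) were higher and 0 lower. Of all genes, 24.2% were higher and 14.5% lower. The pals-6 gene was at 0.0905 FPKM in wild-type worms, 0.895 in cpl-1* and 12.97 in the double strain. Of 160 F-box A genes, 62 (38.75%) were higher and 8 (5%) lower. These families contain close paralogs, and single values are uncertain.

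Metabolic and detoxification genes differed by member. The lowest ratio of a protein-coding gene was that of the acid phosphatase-like gene pho-11 (WBGene00007331), on chromosome II (9931849 to 9934431, plus strand), with 210.1 FPKM in wild-type worms, 103.6 in cpl-1* and 3.87 in the double strain. It overlaps C05C10.3 on the other strand, which had a value of 177 FPKM, 155 FPKM and 119.7 FPKM. All 6 pud genes were lower, with pud-3 at 219 FPKM in wild-type worms, 484 in cpl-1* and 6.44 in the double strain, and pud-4 at 94.2 FPKM, 188 FPKM and 3.45 FPKM. Here cpl-1* lay above wild type and the double strain below it. The flavin monooxygenase gene fmo-2 was low in both transgenic strains, with 42.7 FPKM in wild-type worms, 0.406 in cpl-1* and 0.757 in the double strain. The stearoyl-CoA desaturase gene fat-7 had 58.4 FPKM, 30.8 FPKM and 11.1 FPKM, while the elongase gene elo-7 had 0.322 FPKM, 2.85 FPKM and 12.02 FPKM.

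Among glutathione S-transferases, 5 of 41 were higher and 2 lower, and gst-38 was at 1.21 FPKM in wild-type worms, 34.2 in cpl-1* and 52.7 in the double strain. Among 63 cytochrome P450 genes 7 were higher and 13 lower, and among 61 UDP-glucuronosyltransferases 14 were higher and 5 lower. Of 57 transthyretin-related genes, 18 were higher and 3 lower. Against the 24.2% of all genes that were higher, the share was 12.2% in the first of these families, 11.1% in the P450 genes, 22.95% in the UDP-glucuronosyltransferases and 31.6% in the transthyretin-related genes.

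Housekeeping complexes held few calls. Of 43 nuclear-encoded respiratory chain genes, 1 was called, the cytochrome c gene cyc-2.2, with 22.7 FPKM in wild-type worms, 56.0 in cpl-1* and 109 in the double strain. None of 65 mitochondrial ribosomal protein genes, 33 proteasome genes, 5 mitochondrial chaperone genes or 8 cytosolic heat shock genes was called, with medians of -0.33, -0.49, -0.04 and 0.07. Of these medians, that of the proteasome was negative under both other scalings, while those of the mitochondrial ribosome, the mitochondrial chaperones and the heat shock genes changed sign under 1 of them. The respiratory chain median of -0.05 also changed sign, to 0.29 with FPKM rescaled. The heat shock list does not cover every heat shock gene. The small heat shock gene hsp-17, outside it, was at 20.4 FPKM in wild-type worms, 52.7 in cpl-1* and 210 in the double strain. The proteasome gene pas-7 was at 282 FPKM in wild-type worms and 222 in the double strain. The study's reference genes cdc-42 and pmp-3 were at 219 FPKM and 49.8 FPKM in wild-type worms. In the double strain they were at 196 FPKM and 26.4 FPKM, log2 ratios of -0.16 and -0.89.

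Of 77 cytosolic ribosomal protein genes, 4 were higher and 0 lower, with a median of 0.05 that was -0.10 relative to the median of all genes. The 4 were rpl-42, rpl-11.2, rpl-25.1 and rpl-38. The last was at 6155 FPKM in wild-type worms, 6104 in cpl-1* and 12664 in the double strain, where it was the gene of highest FPKM. Histone genes were higher in 3 (8.82%) and lower in 10 (29.4%) of 34 cases, against 24.2% and 14.5% of all genes. The linker histone gene his-24 had 277 FPKM, 126 FPKM and 50.2 FPKM. Histone mRNAs are mostly without poly(A) tails, and the family is near-identical.

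Neuronal, muscle and receptor gene lists had medians between 0 and 1. Of 12 neuron genes, 4 (33.3%) were higher and 0 lower, with a median of 0.89. The synaptic vesicle gene rab-3 was at 6.99 FPKM in wild-type worms and 22.3 in the double strain, whereas snb-1, a synaptobrevin gene, had 208 FPKM and 187 FPKM. Of 30 FMRFamide-like peptide genes, 8 were higher and 0 lower, and of 31 insulin-like peptide genes 9 were higher and 4 lower. Of 17 muscle genes, 4 were higher and 0 lower, and the myosin heavy chain gene unc-54 had 331 FPKM, 481 FPKM and 766 FPKM. The shares of higher genes, 23.5% for muscle, 26.7% for FMRFamide-like and 29.03% for insulin-like peptide genes, lay near the 24.2% of all genes. Of 200 nuclear hormone receptor genes, 28 (14%) were higher and 6 lower. Chemoreceptor genes were mostly too low to be compared, with a completed comparison for 79 of 1605.

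Markers of cell types were summed per strain, and each is also a member of a list above, so the sums are no separate evidence. No marker was at 0 in wild type or in the double strain. The 6 intestine markers ges-1, elt-2, vha-6, act-5, nhx-2 and ifb-2 summed to 600 FPKM in wild-type worms, 833 in cpl-1* and 1321 in the double strain. Over all 10 intestine genes compared, the sum was 2792 FPKM, 3028 FPKM and 2785 FPKM, with 3 higher and 1 lower, so the difference between these sums rests on the members chosen. The largest member outside the markers was asp-1, a lysosomal protease gene, with 1929 FPKM, 2003 FPKM and 1283 FPKM, and the lower one was the metallothionein gene mtl-2. The 4 neuron markers summed to 241 FPKM, 225 FPKM and 233 FPKM, of which snb-1 made up most, and the 12 neuron genes to 368 FPKM, 359 FPKM and 491 FPKM. The 3 markers of muscle and pharynx summed to 368 FPKM, 525 FPKM and 849 FPKM. Over all 17 muscle genes the relative difference was smaller, with sums of 8200 FPKM, 9549 FPKM and 11897 FPKM. The 5 markers of oocytes summed to 1838 FPKM, 1696 FPKM and 388 FPKM, and the 3 of sperm to 25.6 FPKM, 59.1 FPKM and 123 FPKM. For the epidermis, the 3 molting markers summed to 17.1 FPKM, 38.6 FPKM and 267 FPKM and the 2 adult markers, col-19 and col-7, to 1718 FPKM, 1864 FPKM and 808 FPKM, with col-19 lower and col-7 higher. The part of cell type makeup in the other results was not tested. All samples are labelled as day 1 adults.

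Genes on only in the double strain were few. They were defined by at least 5 FPKM in it and at most 0.5 FPKM in both other strains, which 19 genes (0.111%) met. For comparison, 3 genes were on only in wild type and 0 only in cpl-1*. All were counted among genes with a completed comparison of wild type and the double strain. A gene on only in cpl-1* is low in both of these and can lack that comparison, so the count of 0 is not like the others. The 19 lay between 5.08 FPKM and 101 FPKM in the double strain, with a median of 6.74 FPKM, and 14 were protein coding. At the limit, clc-32 had 5.08 FPKM and C40H1.8, just outside, had 4.94 FPKM.

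The first and second of them by level were short non-coding genes. The mir-80 hairpin, 98 bases long on chromosome III (8865270 to 8865367, minus strand), was listed at 0 in wild type and cpl-1* and at 101 FPKM in the double strain. F01G12.19, a non-coding RNA within the gene ace-1, was listed at 0, 0 and 27.3 FPKM. The small nucleolar RNA F17C11.14 within eef-1G, lower in the set, was listed at 0, 0 and 5.88 FPKM. In features this short few fragments make a high FPKM, and the number of fragments is not known here. Of the 19 genes, 4 had an exonic length under 300 bases and 9 overlap another annotated gene.

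Only 3 of the 19 belonged to a gene list, namely pals-14, ttr-4 and fbxa-163. The highest protein-coding member, C25F9.12, was at 0.453 FPKM in wild-type worms, 0.479 in cpl-1* and 18.7 in the double strain. ZK1025.2 (WBGene00014188) was listed at 0 in wild type, at 0.0672 FPKM in cpl-1* and at 13.8 FPKM in the double strain. The pals-14 gene had 0.168 FPKM, 0.266 FPKM and 8.54 FPKM, and eol-1, whose protein resembles the RNA 5′-end processing enzyme DXO and acts in olfactory learning, had 0.401 FPKM, 0.463 FPKM and 5.35 FPKM. The arrestin-domain gene arrd-3 had 0.0881 FPKM, 0.287 FPKM and 6.51 FPKM, and the F-box gene fbxa-163 had 0.156 FPKM, 0.175 FPKM and 5.22 FPKM.

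Genes off only in the double strain were defined the other way round, by at most 0.5 FPKM in it and at least 5 FPKM in both other strains. This held for 22 genes (0.128%), of which 21 were protein coding. In contrast, 58 genes were off only in wild type and 4 only in cpl-1*. The 22 ran from 5.60 FPKM to 239 FPKM in wild type, with a median of 8.99 FPKM, and had a median of 6.31 FPKM in cpl-1*. At the limit, Y106G6D.1 had 0.4998 FPKM in the double strain and sdz-30, just outside, had 0.506 FPKM.

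The top of this set was F09E10.15, a non-coding RNA of 89 bases on chromosome X (1506302 to 1506390, plus strand), with 239 FPKM in wild-type worms, 41.1 FPKM in cpl-1* and a value of 0 in the double strain. Its value too rests on a short length. Only 1 of the 22 belonged to a gene list. The sepa-1 gene, whose protein carries P granule components to autophagy in embryonic somatic cells, was at 17.4 FPKM in wild-type worms, 10.9 in cpl-1* and 0.493 in the double strain. The early zygotic transcripts pes-10 and vet-6 had 8.31 FPKM and 15.8 FPKM in wild-type worms, 6.26 FPKM and 8.91 FPKM in cpl-1*, and 0.396 FPKM and 0.456 FPKM in the double strain.

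The forkhead gene fkh-3, also expressed in embryos, had 7.52 FPKM, 5.43 FPKM and 0.494 FPKM. The BTB-domain genes btb-10 and btb-11 had 9.76 FPKM and 11.4 FPKM in wild-type worms and 0.322 FPKM and 0.396 FPKM in the double strain. Lipid and drug metabolism genes were in the set as well. The sphingomyelinase gene asm-3 had 15.2 FPKM, 6.49 FPKM and 0.293 FPKM, and the cytochrome P450 gene cyp-25A1 had 7.61 FPKM, 6.39 FPKM and 0.211 FPKM.

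**Figure D4:**
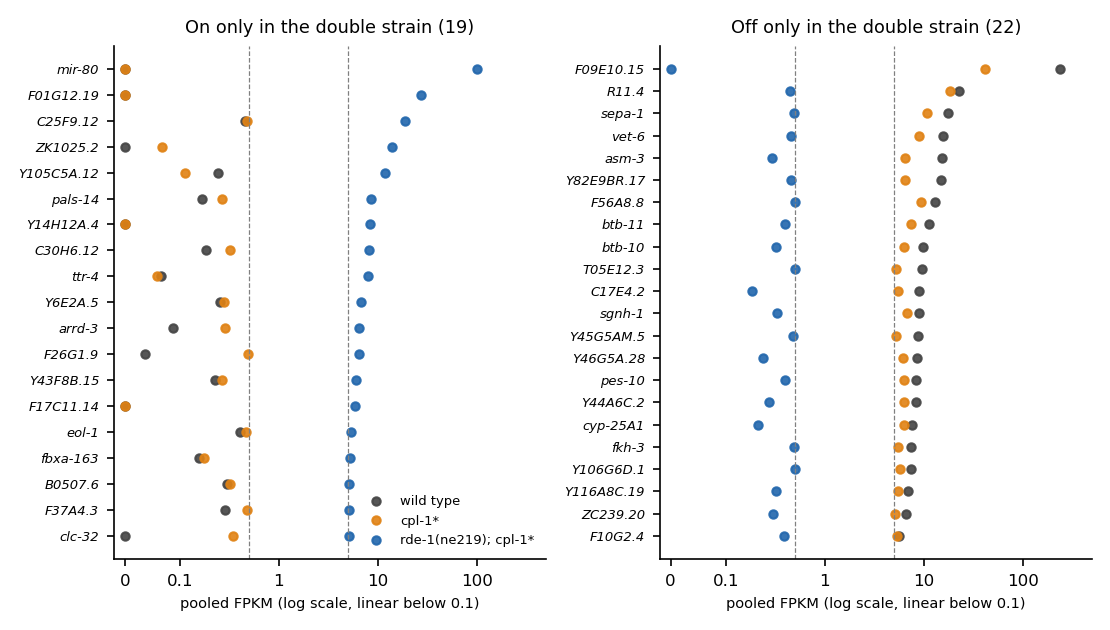
Pooled FPKM (x axis, log scale, linear below 0.1) in wild type, in cpl-1* and in the double strain of the 19 genes on only (left) and the 22 genes off only (right) in the double strain. Dashed lines mark the limits of 0.5 FPKM and 5 FPKM; on the left wild type and cpl-1* lie below the lower limit and the double strain above the upper one, and on the right the order is the reverse.

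Against wild type alone, 452 genes were on and 78 were off in the double strain by the same limits. Of the 452, 58 were also on in cpl-1*, and 19 were the genes on only in the double strain. The 58 genes, off only in wild type, had a median of 7.86 FPKM in cpl-1* and 46.9 FPKM in the double strain. Of these, 49 were higher in the double strain than in cpl-1* past a log2 ratio of 1 and 0 were lower. The set was chosen by at least 5 FPKM in both strains, which leaves little room for a lower call. These counts are therefore no separate evidence. Among all genes compared between these strains, 17.7% were higher and 10.2% lower, but those genes were not chosen in this way. The 58 genes included 11 cuticle collagens. Among these, rol-6 was at 0.432 FPKM in wild-type worms, 28.7 in cpl-1* and 252 in the double strain, and lon-3 at 0.336 FPKM, 22.5 FPKM and 179 FPKM. The warthog-family hedgehog-related gene wrt-4 had 0.305 FPKM, 11.5 FPKM and 63.4 FPKM.

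The count of genes returned to the wild-type level depended on the limit. A gene was counted as returned to the wild-type level when it was past a log2 ratio of 1 in cpl-1* and within 0.5 of wild type in the double strain. Of 1402 genes that were higher in cpl-1* and were also compared in the double strain, 40 (2.85%) had returned, and of 185 that were lower, 29 (15.7%) had. The rest of the 1435 genes higher in cpl-1* had no completed comparison in the double strain and were left out. Genes low in both other strains can be among those left out, so the share of 2.85% can be too low. Of all genes, 31.6% lay within 0.5 of wild type in the double strain. Within a log2 ratio of 1, the counts were 104 and 62. A pseudocount of 0.1 FPKM also redraws the genes called lower in cpl-1*, so its count of 78 returned is not out of the 185. Both ratios share the wild-type value, so an error in it moves a gene in both at once. Only 13 of the 40 and 16 of the 29 reached 10 FPKM in a strain, and 24 of the 69 overlap another annotated gene.

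Among the returned genes that were higher in cpl-1*, F52E1.14 had the highest level, with 208 FPKM in wild-type worms, 472 in cpl-1* and 234 in the double strain. It overlaps the small heat shock gene hsp-17 on the other strand, which had 20.4 FPKM, 52.7 FPKM and 210 FPKM. The glutathione S-transferase gene gst-13 had 51.3 FPKM, 130 FPKM and 45.9 FPKM, and the C-type lectin gene clec-65 had 45.6 FPKM, 105 FPKM and 37.4 FPKM. The glucocerebrosidase-like gene gba-4 had 27.1 FPKM, 62.2 FPKM and 25.4 FPKM, and 3 piRNA identifiers at its locus repeat these values. At lower levels, dyf-3, a gene of sensory cilia, had 3.03 FPKM, 13.2 FPKM and 3.43 FPKM, and egl-1, which starts programmed cell death, had 1.94 FPKM, 5.86 FPKM and 2.77 FPKM. The largest ratio in cpl-1* was 1.90, for ZK809.10, which is 101 bases long.

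The returned genes that were lower in cpl-1* included metabolic genes. The cathepsin B gene cpr-4 was at 424 FPKM in wild-type worms, 153 in cpl-1* and 497 in the double strain, unlike its relative cpr-1 above. The glucuronosyltransferase gene ugt-18 had 7.15 FPKM, 0.453 FPKM and 7.63 FPKM. The aldehyde dehydrogenase gene alh-5 had 16.08 FPKM, 4.96 FPKM and 11.8 FPKM, and the fatty acid CoA synthetase gene acs-17 had 28.7 FPKM, 10.9 FPKM and 21.8 FPKM. The nuclear receptor gene nhr-21 had 15.9 FPKM, 6.67 FPKM and 14.1 FPKM. The 3 largest ratios belonged to T19C4.24, T24A6.17 and F28D1.13, features of at most 150 bases that were listed at 0 in cpl-1*, and F28D1.13 lies within rps-23.

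**Figure D5:**
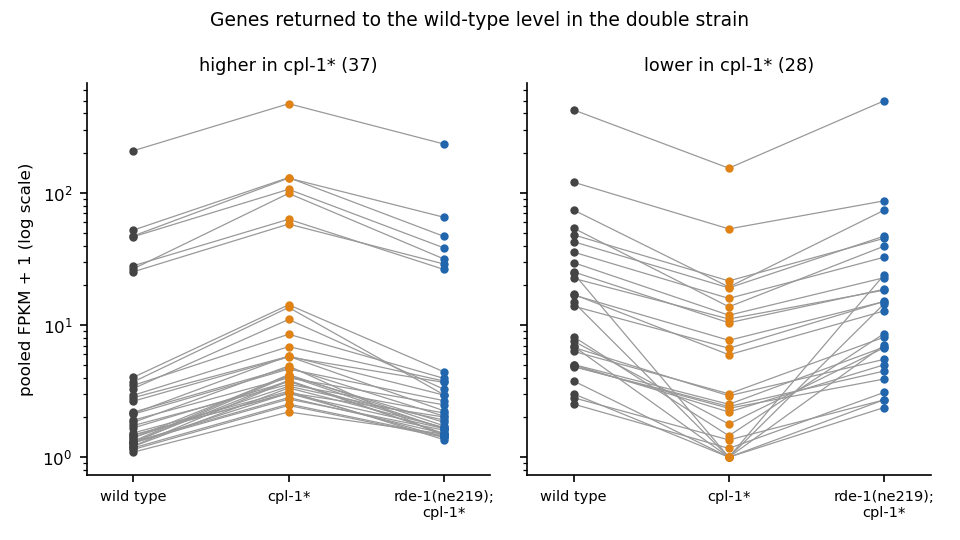
Pooled FPKM plus 1 (y axis, log scale) in wild type, in cpl-1* and in the double strain of the genes returned to the wild-type level, joined by a line per gene. Identifiers with the same values are drawn once, which gives 37 genes that were higher in cpl-1* (left) and 28 that were lower (right); 1 gene that was lower in cpl-1* and at 497 FPKM in the double strain is cpr-4.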

How the data were processed

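Total RNA of whole worms was sequenced by the authors, 3 samples per strain. Per the submitters' processing notes, reads were handled with FastQC 0.11.7, HISAT2 2.1.0, StringTie 1.3.4d and Cuffdiff 2.2.1 on WBcel235. The methods name Ensembl release 91. The authors deposited 1 table of pooled FPKM per gene and strain for 3 comparisons of 46218 rows each, with 1 identifier repeated. Pooling hides the spread between samples, and the depth per sample is not known. The authors' log2 ratios, test statistics, p-values and q-values in this table were not used. Whether counting used strand is not given in the sources used here.

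Log2 ratios were computed from the deposited FPKM with a pseudocount of 1. The planned limma fit needs values per sample and was not run. Names came from the Ensembl release 115 annotation (43259 identifiers) or the table's own labels (2851), and coordinates from that annotation, in which 46042 identifiers overlap their gene. Of the identifiers compared, 1476 share a locus and values with another one and were counted each. The rule for named genes took those the study names, the 12 largest ratios each way and the 10 highest levels per strain. It also took the 12 highest on-only and off-only genes and the 6 largest returned each way. Of lists, it took all members where there were up to 12 and otherwise the 3 largest calls each way. Not all of these genes are described above. Further members and returned genes were named after their values were seen. The members and 53 gene lists were chosen with earlier results of these data known. Sums of a list include members without a completed comparison. The computation used Python 3.11.15 and pandas 2.3.3 and was tested on simulated data. No sequence is printed.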

Additional observations from a re-analysis of the deposited data

How the results depend on the processing

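Among the settings tried, pseudocounts, scaling, filters, thresholds and the counting of identifiers, no named gene or list median that was called changed sign. With a completed comparison and at least 1 FPKM in both strains, 2305 genes were higher. Past a log2 ratio of 2, 1810 were higher and 489 lower, and with FPKM rescaled to a common 75th percentile 1434 were lower. With limits of 2 FPKM and 0.2 FPKM, 31 genes were on only and 58 off only in the double strain, with 10 FPKM and 1 FPKM 14 were off only, and against wild type alone 452 were on and 78 off. Genes returned from higher levels in cpl-1* numbered 18 within a log2 ratio of 0.25, 104 within 1, 0 from a minimum ratio of 2 and 62 relative to the median of all genes. Those returned from lower levels numbered 16, 62 and 5 under the first 3 of these settings and 78 with a pseudocount of 0.1 FPKM, under which 112 of the values of 328 named genes and 10 of 53 list medians also moved by 0.5 or more. Medians of 10 lists changed sign under a setting, and each of these was under 0.5 in size as reported. Protein-coding genes alone, a setting chosen after seeing the data, moved no count by over 1.5 times. No paired analysis was possible because each strain has 1 pooled value per gene, and leaving out a replicate and the limma fit were not run for the same reason.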
